A study of Mus musculus with 6 samples.

Results

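The genes described here are 10 mouse genes of lipoxygenases, prostaglandin synthases and a partner protein. The lipoxygenase genes are Alox12e, Alox15, Alox12, Alox5, Alox12b and Aloxe3. The others are the lipoxygenase partner gene Alox5ap, the cyclooxygenase genes Ptgs1 and Ptgs2, and the prostaglandin E synthase gene Ptges. All 10 were found by symbol among the 24054 gene rows of counts of salivary gland messenger RNA. They were chosen by family and with their K5-RANKL against control differences in these same libraries in view, so the members' own differences are given as descriptions, without tests. The libraries fall into 2 groups of 3, each library holding RNA from the salivary glands of 5 pooled mice. The K5-RANKL mice were K5-rtTA:TetO-RANKL bigenic animals, whose rtTA, a transcription factor needing doxycycline, is under a keratin 5 promoter and turns on RANKL, the TNF family cytokine encoded by Tnfsf11. The controls were monogenic, and both groups took doxycycline in food and water for 2 weeks from 9 weeks of age. The sources used here do not name the controls' transgene, the strain, the sex or the kind of salivary gland. The question of the comparison is how RANKL alters the gland's transcripts.

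Arachidonic acid is cut from membrane phospholipids by phospholipases and then oxygenated along separate routes. Cyclooxygenases turn it into prostaglandin H2, from which terminal synthases make prostaglandins, prostacyclin and thromboxane. Lipoxygenases add oxygen at one position of the chain: the enzyme of Alox5, helped by the membrane protein of Alox5ap, begins leukotriene synthesis in myeloid cells, Alox12 is known from platelets, Alox15 from macrophages and eosinophils, and Alox12e, Alox12b and Aloxe3 from the epidermis. The products act on receptors of neighbouring cells and are known for their parts in inflammation, vessel tone and the skin's water barrier.

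Of the 6 lipoxygenase genes, 5 lie on chromosome 11 (RefSeq, GRCm38.p6). Alox12 (70241457 to 70255380), Alox12e (70315610 to 70322720) and Alox15 (70344147 to 70390538) stand in a row on the minus strand, with 60229 and 21426 bases between them. Aloxe3 (69125417 to 69149115) and Alox12b (69157072 to 69169791) form another pair on the plus strand, with 7956 bases between them. Alox5 lies on chromosome 6 (116410071 to 116461178), Alox5ap on chromosome 5 (149265004 to 149288153), Ptgs2 on chromosome 1 (150100031 to 150108234), and Ptgs1 (36216742 to 36258593) and Ptges (30889471 to 30931020) on chromosome 2. Over their aligned coding bases Alox12e was 66.3% identical to Alox12 and 68.3% to Alox15, and Ptgs1 was 65.3% identical to Ptgs2. The first 60 coding bases of the 3 neighbours are shown because the results turn on telling these genes apart; capitals mark bases that differ from Alox12e, 23 in Alox12 and 19 in Alox15 (GENCODE vM21 transcripts, GRCm38).
Alox12e: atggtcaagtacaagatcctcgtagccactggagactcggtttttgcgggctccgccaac
Alox12: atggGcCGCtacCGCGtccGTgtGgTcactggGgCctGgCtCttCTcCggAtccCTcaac
Alox15: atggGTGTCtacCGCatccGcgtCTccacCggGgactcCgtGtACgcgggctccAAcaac
No window of 50 bases of a member's annotated transcripts occurred in another member. Alox12e, Alox15, Alox5, Alox12b, Ptgs2 and Ptges shared none with any other gene, while 6.80% of the windows of Alox5ap and 2.63% of those of Ptgs1 were shared with a gene annotated on the other strand. The strand setting of the counting is not stated, so reads of Alox5ap and Ptgs1 are less certain in those stretches.

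RefSeq windows of 250 bases before an annotated start were at hand for 7 of the 10 members, and 3 of them, those of Alox5, Alox12b and Ptgs2, lie wholly before the gene's span. The window of Alox12 reaches 10 bases into its gene and that of Alox12e 190 bases, and the windows of Ptgs1 and Ptges belong to starts 13684 and 27723 bases inside the gene. The window of Ptgs2 is printed because it lies before the gene and held a motif match, in capitals. It lies at chr1:150099781-150100030 on the plus strand of GRCm38.p6 and reads from 5′ to 3′.
Ptgs2: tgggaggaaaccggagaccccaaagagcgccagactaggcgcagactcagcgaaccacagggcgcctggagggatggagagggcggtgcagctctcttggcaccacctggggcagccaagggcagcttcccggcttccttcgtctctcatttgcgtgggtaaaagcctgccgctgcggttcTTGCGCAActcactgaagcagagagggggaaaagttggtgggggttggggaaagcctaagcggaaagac
Both strands were searched for the TATA box, spelled TATAAA. The same search covered the AP-1 site, spelled TGANTCA, and the C/EBP site, spelled TTGCNNAA. It also covered the core of the cyclic AMP response element, spelled CGTCA, the PU.1 and SPI-B site, spelled GAGGAAGT, and the kappaB site. Ptgs2 held a C/EBP match from 69 to 62 bases before its start, and 9.56% of 32851 promoter windows of this length hold one. The window at the internal start of Ptgs1 held the PU.1 and SPI-B match, present in 2.44% of windows. The kappaB site was present in 7.25% of all windows, the AP-1 site in 6.75%, the TATA box in 12.4% and the cyclic AMP element's core in 17.8%, and none of these was found in the 7 members' windows. A match is a description of letters and not a binding site. Bases after each annotated start were not searched, so a motif missing from a window may still lie nearby.

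Levels are in CPM, depth-scaled read counts, here on library sizes corrected by the trimmed mean of M values (TMM). Total counts lay between 13875951 and 17921815 in the controls and between 14149734 and 16412579 in the K5-RANKL libraries. Transcripts of acinar cells, the secretory cells of the gland, dominated the controls: 9 acinar markers summed to between 472218 and 582045 CPM there and to between 99294 and 146104 CPM in K5-RANKL libraries. TMM factors were 0.677 to 0.735 and 1.32 to 1.47. Across 14044 tested genes the median log2 fold change was 0.01 by TMM and 1.01 by library totals, and directions are given on the former. In these bulk samples, fewer cells of a type and less RNA per cell cannot be told apart.

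In controls most lipoxygenase transcript was Alox12, and in K5-RANKL glands most was Alox12e. Alox12e, the epidermal lipoxygenase gene, had 5, 3 and 3 counts in the controls and 6368, 3931 and 4934 in the K5-RANKL libraries. In CPM these were 0.461, 0.294 and 0.235, against 264, 210.2 and 229.7. All K5-RANKL libraries lay far above all controls, at a mean of 235 ± 27.3 CPM against 0.33 ± 0.117 (SD, n = 3 each), a log2 difference of 9.46 (SE 0.18). With 11 counts over the controls the ratio of the groups was 729, with a 95% counting interval of 407 to 1460. That interval is wider than the SE implies, so the size of the difference is less certain than the SE makes it look.

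Alox15, which lies next to it, had 1, 0 and 1 counts in the controls and 497, 216 and 342 in the K5-RANKL libraries. Its K5-RANKL levels were 20.6, 11.5 and 15.9 CPM, and no control exceeded 0.0921 CPM. With 2 counts over the controls the ratio of the groups was 278, with a 95% counting interval of 76.7 to 2296 that covers counting error only. The fitted log2 difference of 7.92 (SE 0.50) therefore has an uncertain size.

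Alox12, the platelet-type gene on the other side of Alox12e, stood at 22.9, 19.9 and 22.8 CPM in the controls and at 14.4, 18.0 and 18.9 CPM in the K5-RANKL libraries. The groups did not overlap on this scale, and the log2 difference was −0.36 (SE 0.11), but by library totals it turned to 0.64. The direction of Alox12 therefore depends on the scaling. Of 7 platelet and megakaryocyte markers 2 were tested and 1, Pf4, rose; the list summed to between 5.79 and 6.96 CPM in controls and, with RANKL, to between 9.33 and 10.1 CPM. The platelet receptor genes Gp6 and Gp9 had at most 3 counts over either group, and the part of platelets in the level of Alox12 was not tested.

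**Figure D1:**
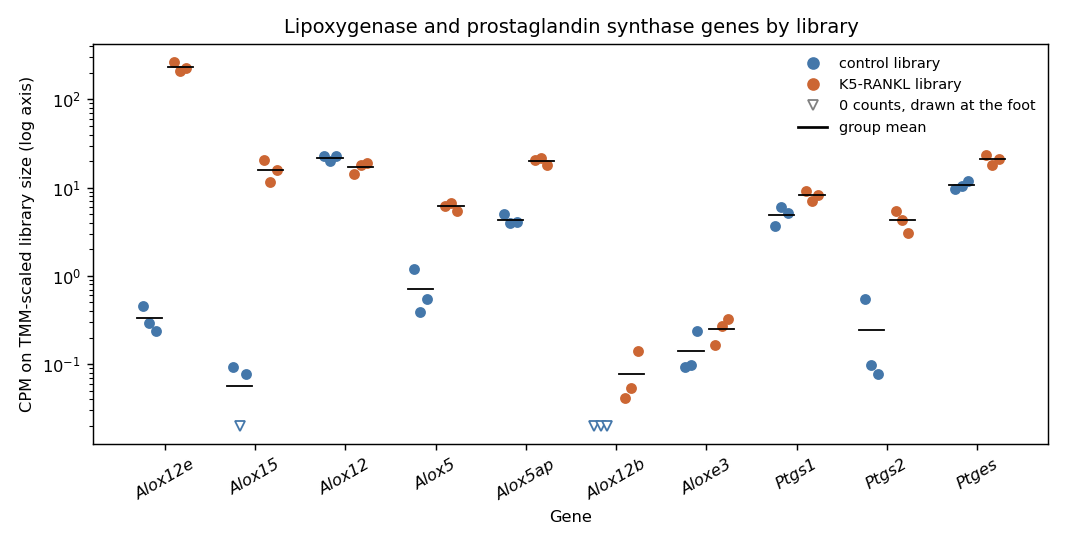
Levels of the 10 genes in CPM, TMM-scaled, on a log axis; each point is 1 of 3 control or 3 K5-RANKL libraries, bars are group means and open triangles are libraries with 0 counts. Alox12e reaches 210.2 to 264 CPM in K5-RANKL libraries, against 0.461 CPM at most in controls. Alox12 lies between 14.4 and 22.9 CPM in all 6 libraries.

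To compare genes with each other, CPM were divided by exon length in kb. Of the summed level per kb of the 6 lipoxygenase genes, Alox12 held 91.7, 95.8 and 95.1% in the controls and 3.30, 5.16 and 4.94% in the K5-RANKL libraries. Alox12e held 2.66, 2.05 and 1.42% in the controls and 87.4, 87.3 and 86.6% in the K5-RANKL libraries. Alox15 held 7.85, 5.53 and 6.91% of the K5-RANKL sums. The make-up was close to the same in the 3 libraries of a group and does not depend on the scaling between libraries. Within single K5-RANKL libraries Alox12e stood 26.5, 16.9 and 17.5 times above Alox12 per kb, and in the controls at 0.029, 0.021 and 0.015 of it. The low counts of Alox12e in the same libraries that held 203 to 291 counts of Alox12 show that few reads of Alox12 were counted to Alox12e.

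**Figure D2:**
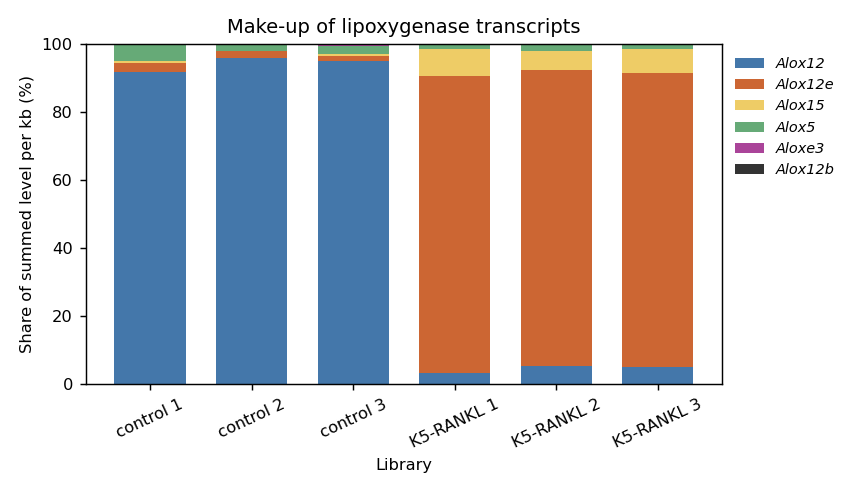
Share (percent) of the summed CPM per kb of 6 lipoxygenase genes held by each gene, for 3 control and 3 K5-RANKL libraries. Alox12 holds 91.7 to 95.8% of each control bar and Alox12e 86.6 to 87.4% of each K5-RANKL bar.

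The leukotriene-forming pair was higher in K5-RANKL glands. Alox5, which encodes the first enzyme of leukotriene synthesis, stood at 1.20, 0.392 and 0.547 CPM in the controls and at 6.22, 6.68 and 5.45 CPM in the K5-RANKL libraries, a log2 difference of 3.09 (SE 0.27). Alox5ap, whose product presents arachidonic acid to that enzyme, stood at 4.97, 3.92 and 4.07 CPM and at 20.8, 21.5 and 18.0 CPM, a log2 difference of 2.22 (SE 0.13). The groups did not overlap for either gene. Per kb Alox5ap lay 9.66, 9.30 and 9.56 times above Alox5 in the K5-RANKL libraries, and 12.01, 28.9 and 21.5 times in the controls, where Alox5 had 4 to 13 counts a library.

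Most tested markers of myeloid cells, which are known for these genes, were higher in the same libraries. Of all genes tested, 34.2% were called higher. All 11 macrophage and monocyte markers rose, and their sum went from between 222 and 255 CPM in controls to between 1181 and 1216 CPM in K5-RANKL libraries. All 4 tested neutrophil markers of the 8 present rose, and the sum of the 8 was 2.39 to 4.77 and 12.4 to 14.6 CPM. Of these, S100a8, S100a9 and Cxcr2 passed the filter on low counts only through the K5-RANKL libraries, which favoured a rise. The call of the neutrophil marker S100a8 ended by DESeq2 and when control 1, control 2 or K5-RANKL 1 was left out, and that of the monocyte marker Ly6c2 ended when control 1 or control 2 was left out. Of 9 mast cell markers 6 rose and Kit fell, a call lost by library totals. The mast cell list summed to between 49.0 and 62.0 CPM in controls and to between 48.9 and 54.1 CPM in K5-RANKL libraries. Kit held most of that sum in controls, at a mean of 46.1 CPM, and stood at 23.7 CPM with RANKL. The tryptase gene Tpsab1 had 4 counts over the controls and 134 over the K5-RANKL group, a ratio of 17.6 (95% counting interval 6.73 to 65.7). The carboxypeptidase gene Cpa3 rose by 1.48 (SE 0.30). Both tested eosinophil markers of 7 rose, Ccr3 from 0 to 64 counts and Il5ra from 6 to 58. Like Tpsab1, both passed the filter on low counts only through the K5-RANKL libraries, so their rise is not read as that of the list. The list summed to 0.981 to 1.80 CPM in the controls and 2.57 to 2.86 CPM in the K5-RANKL libraries. The eosinophil granule gene Epx had 0 and 2 counts. Prg2, a gene of the same list, was not tested and went the other way. It had 39 counts over the controls and 16 over the K5-RANKL group, a ratio of 0.216 (95% counting interval 0.113 to 0.395). Of 3 tuft cell markers tested 2 rose; tuft cells, epithelial cells known for Alox5 and Ptgs1, had their defining channel gene Trpm5 at 0 control counts and 3 with RANKL, and Pou2f3 at 3 and 5. The part of any of these cells in the levels of Alox5, Alox5ap or Alox15 was not tested.

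The barrier lipoxygenase genes Alox12b and Aloxe3, whose enzymes act one after the other on a linoleate-bearing ceramide of the skin barrier, stayed near the limit of detection. Alox12b had 0 counts in every control and 1, 1 and 3 in the K5-RANKL libraries, where 3 counts over the controls would be 0.0886 CPM and the K5-RANKL mean was 0.0782 CPM, so no fold is given. Aloxe3 had 1, 1 and 3 counts in the controls and 4, 5 and 7 in the K5-RANKL libraries, at 0.142 ± 0.0806 and 0.253 ± 0.081 CPM (SD, n = 3 each), and the groups overlapped. Its ratio of 1.68 had a 95% counting interval of 0.59 to 5.88. Neither gene passed the filter on low counts. Of 11 suprabasal keratinocyte markers 4 passed it; the cornified envelope genes Ivl and Lor had at most 3 counts over either group and Krt1 had 5 and 6. Dsg1a, a desmosomal gene of that list, rose by 8.71 (SE 0.30, edgeR adjusted p = 2.28e-10), or by 10.32 without control 1 and 8.05 without control 3. It had 5 counts over the controls, and the ratio of the groups was 444 (95% counting interval 190 to 1367). Sbsn rose by 1.64 (SE 0.20). Calml3 and Krt10 fell by 1.38 and 0.70, and library totals ended both calls. Krt10 also missed the threshold when control 1, control 2, K5-RANKL 1 or K5-RANKL 3 was left out. By DESeq2, and with TMM without the 20 most abundant genes, Krt10 missed it too.

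Both cyclooxygenase genes were higher in K5-RANKL glands: Ptgs2, known as the inducible one, and Ptgs1, known for steady expression. Ptgs2 had 6, 1 and 1 counts in the controls and 130, 81 and 66 in the K5-RANKL libraries, or 0.553, 0.098 and 0.078 against 5.39, 4.33 and 3.07 CPM. Control 1 held most of the control counts, and the log2 difference of 4.13 (SE 0.45) was 5.51 without it. Ptgs1 stood at 3.68, 5.98 and 5.16 CPM in the controls and at 9.21, 7.06 and 8.24 CPM in the K5-RANKL libraries. The groups were separate but close, with a log2 difference of 0.73 (SE 0.17).

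Per kb the constitutive gene remained the more abundant in every library. The ratio of Ptgs2 to Ptgs1 was 0.127, 0.014 and 0.013 in the controls and 0.497, 0.52 and 0.316 in the K5-RANKL libraries. Ptges, which encodes the membrane enzyme that turns prostaglandin H2 into prostaglandin E2, stood at 9.67, 10.3 and 11.96 CPM in the controls and at 23.5, 18.2 and 20.9 CPM in the K5-RANKL libraries, a log2 difference of 0.97 (SE 0.12). Its ratio to Ptgs1 per kb was 2.59, 1.70 and 2.29 in the controls and 2.52, 2.54 and 2.501 in the K5-RANKL libraries, so the ranges overlapped.

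In order of level per kb, the controls held Alox12 (5.35 ± 0.414 CPM per kb), Alox5ap (3.04 ± 0.401), Ptges (2.71 ± 0.301) and Ptgs1 (1.27 ± 0.30), with the other 6 at no more than 0.292 CPM per kb in any library (SD, n = 3). Alox5ap and Ptges did not differ beyond their spread. In K5-RANKL libraries the order was Alox12e (83.0 ± 9.67), Alox5ap (14.2 ± 1.29), Alox15 (6.53 ± 1.85), Ptges (5.30 ± 0.679), Alox12 (4.19 ± 0.581), Ptgs1 (2.10 ± 0.277), Alox5 (1.49 ± 0.152) and Ptgs2 (0.931 ± 0.253). The ranges of Alox15 and Ptges overlapped, as did those of Ptges and Alox12, and the other neighbours in this order were separate. Exon lengths came from GENCODE and may differ from those the counting used.

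The fit across all genes took in 8 of the 10 members, and Alox12b and Aloxe3 fell to the filter. It called 7 of the 8 higher and 1, Alox12, lower, or all 8 higher by library totals (edgeR's quasi-likelihood test, adjusted p under 0.05), where 66.2% of all genes tested were called, 34.2% higher and 32.1% lower. The groups of all 8 were separate, as were those of 70.4% of all genes tested; 7 of the 8 were separate and higher, as were 36.3%. These counts come from the contrast that the choice of members used and support nothing further. By rank of fitted log2 difference from the highest, Alox12e was 6 of 14044, Alox15 was 30, Ptgs2 203, Alox5 357, Alox5ap 756, Ptges 2484 and Ptgs1 3087.

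**Figure D3:**
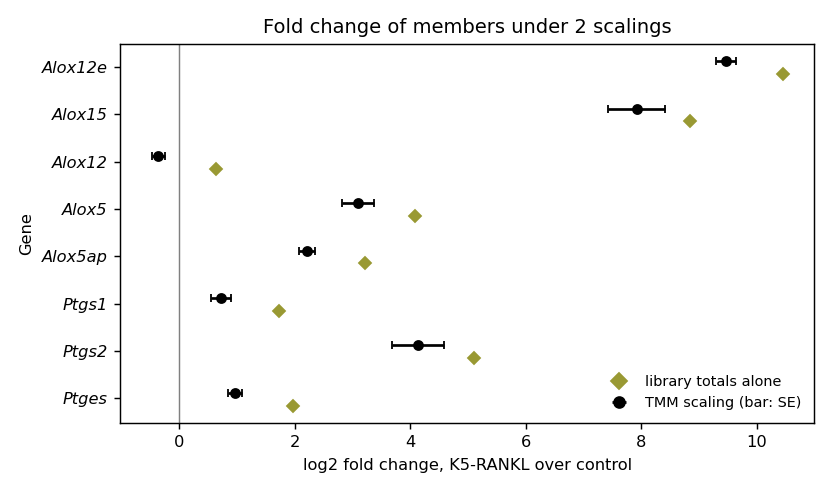
Log2 fold change (x axis, K5-RANKL over control) of the 8 genes tested, with TMM scaling (circles, bars are SE) and with library totals alone (diamonds). All 8 shift by about 1 to the right with library totals, and Alox12 crosses 0 from −0.36 to 0.64.

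Members differed in how they stood among the K5-RANKL libraries. In K5-RANKL 2, Alox15 stood at 63.2% of the mean of the other K5-RANKL libraries, Ptgs1 at 80.9%, Ptges at 81.9% and Alox12e at 85.1%. Alox5 stood at 115%, Alox5ap at 111%, Alox12 at 108% and Ptgs2 at 102% of theirs. The same library had the lowest Tnfsf11 of its group, at 405 CPM against 701 and 723. The controls held Tnfsf11 at 0.938 to 3.78 CPM. K5-RANKL 2 also had the lowest sum of 7 basal epithelial markers, of which 6 rose, at 501 CPM against 952 and 902. Its 9 acinar markers had the highest sum of the group, at 146104 CPM against 99294 and 111533. Its macrophage and monocyte markers summed to 1216 CPM against 1185 and 1181. With 3 libraries no relation among these levels was tested.

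Other genes of the pathway, listed by role, were tested with the same fit. Counts were at hand for 97, and 71 of these were tested: 37 rose, 18 fell and 16 missed the threshold. Of all genes tested 34.2% rose and 32.1% fell, and the list counts below are to be read beside these shares. The median log2 fold change of the 71 was 0.43, where all genes tested had 0.01. By library totals 64 of the 71 rose and 2 fell, where 11733 of 14044 genes tested were higher and 698 lower. These lists were written with earlier results of these data known.

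Genes that release arachidonic acid and place it in membranes mostly rose, with 12 of 17 tested higher, 2 lower and a median of 0.79. Among them the call of Mboat7, at 0.23, ended when control 2, control 3, K5-RANKL 1 or K5-RANKL 3 was left out. It also ended under RLE or upper-quartile scaling, by DESeq2 and by limma-voom, and the groups overlapped. Pla2g4a, encoding the cytosolic phospholipase that frees arachidonic acid for both routes, stood at 2.49, 2.55 and 2.81 CPM in controls and at 13.3, 10.4 and 12.9 CPM in K5-RANKL libraries and rose by 2.22 (SE 0.16, edgeR adjusted p = 2.06e-09). The desaturase genes Fads1 and Fads2, which act in the making of arachidonic acid, rose by 1.51 (SE 0.09) and 1.40 (SE 0.12). Pla2g12a, encoding a secreted phospholipase, fell by 2.52 (SE 0.11), from 61.9 ± 5.39 to 10.8 ± 1.96 CPM (SD, n = 3 each; edgeR adjusted p = 1.40e-11), and by library totals still fell. Lpcat3, which puts arachidonate into phospholipids, fell by 0.58, but by library totals it rose by 0.42.

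Among the terminal synthases 5 of 8 tested rose and 3 fell, with a median of 1.05. Tbxas1, the thromboxane synthase gene, stood at 1.20, 1.86 and 1.64 CPM in controls and at 11.1, 10.3 and 10.99 CPM in K5-RANKL libraries and rose by 2.78 (SE 0.18, edgeR adjusted p = 3.38e-10). Hpgds, the haematopoietic prostaglandin D synthase gene, rose by 2.30 (SE 0.22) and the prostacyclin synthase gene Ptgis by 1.76 (SE 0.23). The other prostaglandin E synthase genes went apart from each other. Ptges3, which also encodes a cochaperone, rose by 0.33 (SE 0.07) and Ptges2 fell by 0.61 (SE 0.11), its direction turning to 0.39 by library totals. Cbr1, encoding a carbonyl reductase that can act on prostaglandins, fell by 0.99, and by library totals its call was lost, at 0.0014. Akr1b3 was listed at 0 counts in all libraries. The annotation behind the counts is not stated, so this 0 is not read as absence of the transcript.

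Among genes of prostaglandin export, uptake and breakdown, Slco2a1 and Ptgr1 rose and 3 genes fell. Slco2a1, encoding the carrier that brings prostaglandins into cells, rose by 1.26 (SE 0.13), from 8.97 ± 0.998 to 21.4 ± 3.43 CPM (SD, n = 3 each). Hpgd, encoding the dehydrogenase that inactivates prostaglandins, stood at 10.04, 10.2 and 10.7 CPM in controls, against 4.98, 4.70 and 5.03 CPM with RANKL, and fell by 1.07 (SE 0.13, edgeR adjusted p = 1.16e-06). Ptgr1, a reductase gene of this pathway, rose by 0.62 (SE 0.15), whereas the reductase genes Zadh2 and Ptgr2 fell by 1.03 (SE 0.07) and 0.37 (SE 0.08). By library totals the calls of Hpgd and Zadh2 were lost, at −0.07 and −0.04, and Ptgr2 rose by 0.63. In this list of 6, 2 rose, 3 fell and the median was −0.18.

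Of 8 prostanoid receptor genes tested 3 rose and 2 fell; the median of the list was 0.14. The prostaglandin E2 receptor genes whose products raise cyclic AMP rose: Ptger4 by 1.77 (SE 0.13), from 4.24 ± 0.288 to 14.5 ± 0.648 CPM, and Ptger2 by 2.00 (SE 0.28), from 0.725 ± 0.232 to 2.86 ± 0.0234 CPM (SD, n = 3 each). Ptger3, another prostaglandin E2 receptor gene, stood at 0.09 and did not pass, and by library totals stood at 1.09. Ptger1, the most abundant of the list by CPM, stood at −0.19 and did not pass, and by library totals stood at 0.81. Ptgdr, a prostaglandin D2 receptor gene, had 85 counts over the controls and 5 over the K5-RANKL libraries, at 2.39, 3.43 and 1.88 CPM against 0.124, 0.107 and 0. It fell by 4.89 (SE 0.49, edgeR adjusted p = 1.19e-07), and by library totals it still fell. Ptgfr fell by 1.56 (SE 0.41), a call lost by library totals, and the small rise of Ptgir, by 0.46, ended when any single library but K5-RANKL 1 was left out. The call of Ptgir also ended under RLE or upper-quartile scaling, by DESeq2 and by limma-voom.

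Downstream of Alox5, Ltc4s, Ggt5 and Dpep2 rose and Lta4h, Mgst3, Ggt1 and Dpep1 fell. Ltc4s, which makes leukotriene C4, rose by 1.91 (SE 0.27) from 0.862 ± 0.0719 to 3.24 ± 0.581 CPM, and Ggt5 and Dpep2, whose enzymes trim that leukotriene, rose by 1.42 (SE 0.14) and 4.02 (SE 0.36). Dpep2 stood at 0.092, 0.294 and 0.313 CPM in controls and at 4.69, 3.64 and 3.45 CPM in K5-RANKL libraries (edgeR adjusted p = 2.82e-08). Lta4h, on the leukotriene B4 branch, fell by 0.24 (SE 0.08), a call lost without control 1 or K5-RANKL 3, and rose by 0.76 by library totals. Mgst3 fell by 0.85 and stood at 0.15 by library totals. The fall of Ggt1, by 0.45, turned to a rise of 0.55 by library totals and ended when control 1, control 3, K5-RANKL 1 or K5-RANKL 2 was left out. It also ended by DESeq2 and without the filter on low counts. Dpep1 fell by 0.57, or rose by 0.43 by library totals. In this list 3 of 8 tested rose and 4 fell, with a median of −0.28, and without control 1 the number that fell was 2.

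All 6 tested genes of 10 receptors for leukotrienes, hydroxy acids and related ligands rose, with a median of 1.43. Fpr1, Fpr2 and Ltb4r1 passed the filter on low counts only through the K5-RANKL libraries, so the filter itself favoured a rise for them. The count of 6 and the median are therefore not read as a uniform rise. Cysltr1, a receptor for the peptide leukotrienes, rose by 1.40 (SE 0.23) from 1.83 ± 0.495 to 4.82 ± 0.774 CPM (SD, n = 3 each). Ltb4r1, a leukotriene B4 receptor gene, rose by 1.46 (SE 0.33), Gpr132 by 0.88 (SE 0.12) and Cmklr1 by 1.09 (SE 0.10). Fpr1, a formyl peptide receptor gene, had 1 count over the controls against 33, for a ratio of 17.4 with a 95% counting interval of 2.91 to 707. The fitted 3.81 became 6.20 without control 2, which held that count, and Fpr2 went from 1.78 to 2.46 without control 2.

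Of the other 8 genes of lipoxygenation and hydroperoxide handling in the table, 2 rose and 2 fell. Alox8, a lipoxygenase gene next to Alox12b that the list of members leaves out, had 0, 0 and 2 control counts against 20, 16 and 10, a ratio of 12.1 (95% counting interval 3.17 to 103; edgeR adjusted p = 0.000601). The fitted 3.44 became 6.62 without control 3, the control that held both counts. Gpx2, a glutathione peroxidase gene, rose by 0.78 (SE 0.11). The epoxide hydrolase genes Ephx1 and Ephx2 fell by 0.63 and 0.53, and by library totals they rose by 0.36 and 0.47. Gpx1, the most abundant of the list by CPM, stood at −0.0048 and by library totals at 0.99. Without control 1 the number that rose was 4, the additions being Gpx3 and Gpx4.

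Of 17 genes of the epidermal lipid barrier, the pathway in which Alox12b and Aloxe3 act, 10 were tested, 4 rose and 2 fell, with a median of 0.39. Tgm1, the transglutaminase gene of the cornified envelope, stood at 1.84, 1.86 and 3.13 CPM in controls and at 6.01, 4.70 and 5.03 CPM in K5-RANKL libraries and rose by 1.18 (SE 0.22, edgeR adjusted p = 0.000119). Elovl1, a fatty acid elongase gene, rose by 0.34 (SE 0.08). Smpd1 and Slc27a4 fell by 0.70 and 0.49, but by library totals they rose by 0.29 and 0.51. Several barrier genes were near the limit of detection: Sdr9c7 had 1 count over the controls and 3 over the K5-RANKL libraries, Abca12 had 0 and 5 and Pnpla1 0 and 6.

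**Figure D4:**
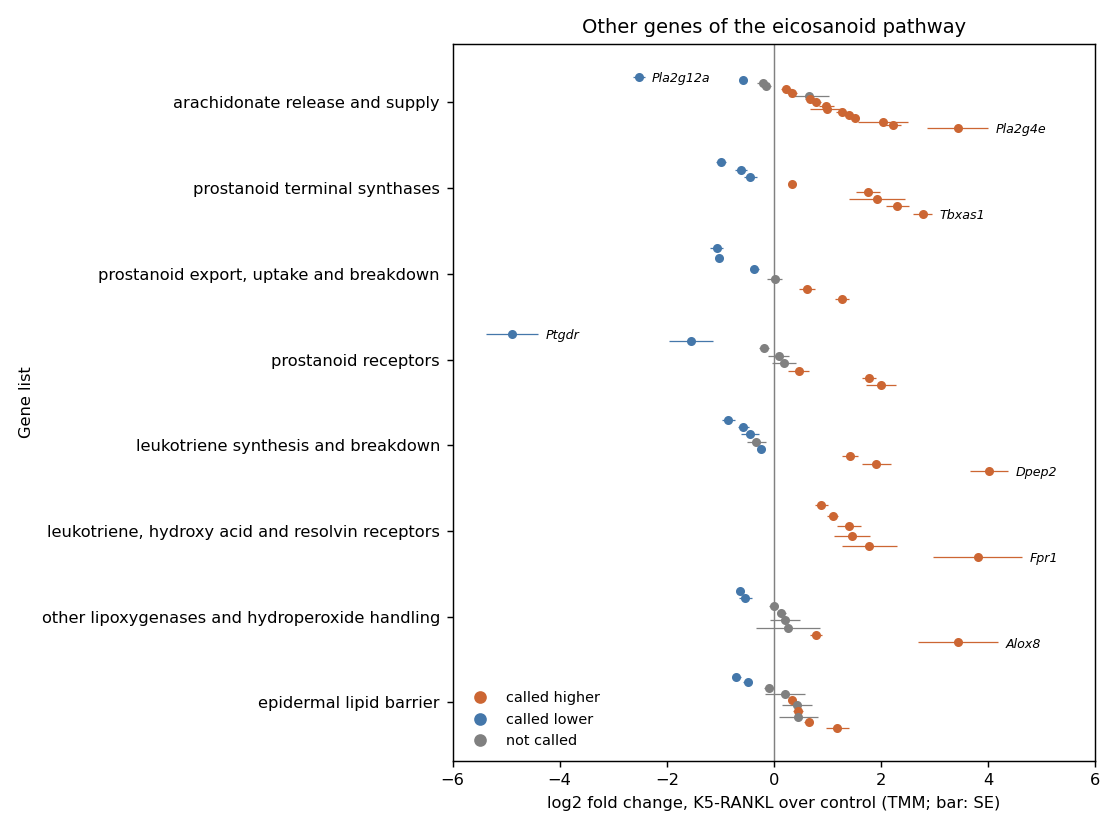
Log2 fold change (x axis, TMM scale, bars are SE) of the tested genes of 8 role lists (y axis), coloured by call; genes beyond 2.5 in either direction are named. All 6 tested leukotriene and hydroxy acid receptor genes lie right of 0, and Ptgdr lies at −4.89. Of those 6, Fpr1, Fpr2 and Ltb4r1 passed the filter on low counts only through K5-RANKL libraries.

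Neighbouring genes were called in both directions. The nearest tested gene on either side of each member gave 14 genes besides the members, of which 6 rose, 5 fell and 3 missed the threshold (median 0.06). Of all genes tested, 34.2% rose and 32.1% fell. The rise of Uspl1 was lost without control 2, and Per1 passed, at −0.71 and −0.35, without K5-RANKL 2 and K5-RANKL 3. Beside the chromosome 11 trio, Rnasek fell by 0.75, standing at 0.24 by library totals, and Pelp1 did not pass at 0.15, though it did without K5-RANKL 2, while Alox12e and Alox15 between them stood at 9.46 and 7.92. Pla2g4a, the nearest tested gene below Ptgs2, lies 138740 bases away and rose by 2.22. Medag, the nearest above Alox5ap, rose by 1.86 (SE 0.14).

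The genes whose pattern over the 6 libraries was most like that of Alox12e, by the root mean square difference of centred log2 CPM with 0.5 CPM added, were Msln (0.37), Ccl20 (0.40), Tnfsf11 (0.42), Abca13 (0.64) and Dsg1a (0.76). Those most like Ptgs2 were Reg3g (0.15), Alox5 (0.21), Relt (0.25), Chil3 (0.25) and Serpinb10 (0.27). The added 0.5 CPM exceeded Alox12e in every control and Ptgs2 in controls 2 and 3, which shrinks their differences between groups. The fitted log2 difference was 4.13 for Ptgs2 but 3.09 for Alox5 and 2.87 for Relt. Reg3g and Chil3 had 2 and 5 counts over the controls. Msln stood at 545, 514 and 526 CPM and Reg3g at 3.82, 3.31 and 1.96 CPM in the K5-RANKL libraries. The 6 libraries are 3 of each group, so these likenesses hold the difference between groups.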

How the data were processed

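Counts of 24054 gene rows in 3 control and 3 K5-RANKL libraries were used as deposited by the authors, in whole reads per gene. RNA went into the libraries at 250 ng with a stranded messenger RNA kit, per the labels' protocols. STAR and mm10 are named for the alignment in the submitters' processing notes; no source used here names the counting tool, annotation or strand setting. Groups follow the genotype label. Libraries of a group differed by 6.26 to 38.3 in chi-square per gene, so none was a second copy. Nothing says that pools came from separate litters or days, so p-values measure the spread between pools.

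Genes were filtered with filterByExpr (minimum count 10), scaled by TMM and fitted in edgeR, with its two-sided quasi-likelihood test (robust option) and Benjamini-Hochberg adjustment over 14044 genes; a call is an adjusted p under 0.05. A gene low in either group could pass the filter through the other group alone, which favoured the direction of that other group. SE is the log2 fold change over the square root of F. Where a group held few counts, this SE can be smaller than counting error alone. The script was tested on simulated data. Counting intervals are exact at 95% and, like the floor of 3 counts, cover counting error only; 3 counts were 0.235 to 0.294 CPM in controls and 0.124 to 0.16 in K5-RANKL libraries. Levels per kb used the union of GENCODE vM21 exons; positions and promoters are from RefSeq GRCm38.p6, the assembly behind mm10. Versions were edgeR 4.0.16, DESeq2 1.42.0 and limma 3.58.1, under R 4.3.3.

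Members and lists were chosen with earlier results of these data known. Named genes are all members, the 4 called genes with the smallest p and the most abundant gene of each of 8 role lists, neighbours of members and the 5 genes most like Alox12e and Ptgs2; a few others were named after their values were seen. A gene that the rule names is not reported here. Marker lists of 16 cell types were summed, and those of the lists not described above went as follows: of 5 myoepithelial genes 4 fell; of 5 fibroblast genes 4 rose; of 5 endothelial genes 2 rose and 2 fell; of 5 T cell genes 4 rose; of 5 B cell genes 1 rose; and none of 5 adipocyte or 5 skeletal muscle genes was called. By library totals 3 myoepithelial, 5 fibroblast, 5 endothelial, 5 T cell, 5 B cell, 4 adipocyte and 5 skeletal muscle genes were higher and 0 lower. Alternatives were RLE, upper-quartile and library-total scaling, TMM without the 20 most abundant genes, DESeq2, limma-voom, no filter, at least 50 counts in 3 libraries, and leaving out each library.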

Additional observations from a re-analysis of the deposited data

How the results depend on the processing

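No paired analysis was possible because the labels give the libraries of the 2 groups no shared numbers. Scaling by library totals moved most values: 11733 genes were higher and 698 lower, in place of 4799 and 4505. In the role lists, the numbers higher by library totals were 4 for prostanoid export, uptake and breakdown, 6 for prostanoid receptors, 7 for leukotriene synthesis, 8 for other lipoxygenases and hydroperoxides and 10 for the epidermal barrier. The numbers lower were 1 for arachidonate release, 1 for prostanoid receptors and 0 for terminal synthases, prostanoid breakdown, leukotriene synthesis, other lipoxygenases and the barrier. The median log2 difference of the 8 tested members went from 2.65 to 3.65, and ran from 2.49 to 2.99 when libraries were left out one at a time. Among the members, 8 role lists and neighbours, directions that turned by library totals were those of Alox12 (0.64), Lpcat3 (0.42), Lta4h (0.76), Mgst3 (0.15), Ptgr2 (0.63), Ptger1 (0.81), Cbr1 (0.0014), Ephx1 (0.36), Ephx2 (0.47), Gpx1 (0.99), Slc27a4 (0.51), Smpd1 (0.29), Ptges2 (0.39), Dpep1 (0.43), Ggt1 (0.55), Fam213b (0.56), Pla2g6 (0.80), Pla2g16 (0.86), Cyp4f18 (0.67) and Abhd5 (0.91), and, of the members' neighbours, March8 (0.48), Mrrf (0.98), Pdcl (0.36), Per1 (0.46), Rnasek (0.24) and Tor1b (0.33). Requiring 50 counts in 3 libraries tested fewer genes and left 3 leukotriene and hydroxy acid receptors and 1 other lipoxygenase or hydroperoxide gene higher and 0 prostanoid receptors lower. Leaving out libraries gave 2 to 4 higher in the list of other lipoxygenases and hydroperoxides and 2 to 4 lower in that of leukotriene synthesis. Of 266 values of counts and of the members' median under alternatives, 244 stayed within 1.5 times the main count or within the spread of the libraries. Fewer than 10 counts over a group limit the sizes for Alox15, Ptgs2, Alox8, Fpr1, Pla2g4e, Fpr2, Dpep2, Ptgds, Ptgdr, Alox12b and Aloxe3. The same holds for the markers Dsg1a, Tpsab1, Gfi1b, Ccr3 and Il5ra, and for Abca13, Reg3g and Chil3. Alox12e had 11 counts over the controls, and its size is limited in the same way.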

Other observations

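Among genes of the arachidonate release list not described above, Pla2g4e, a membrane-bound relative of the cytosolic phospholipase best known from epidermis and brain, had 3 counts over the controls and 66 over the K5-RANKL libraries. Its fitted log2 fold change was 3.43 (SE 0.57, edgeR adjusted p = 4.51e-05), and 4.24 without control 3. Pla2g2d, encoding a secreted phospholipase of lymphoid tissue, rose by 0.98 (SE 0.15), from 11.6 ± 3.03 to 23.1 ± 1.90 CPM (SD, n = 3 each). Ptgds, the other prostaglandin D synthase gene, had 8 counts over the controls and 59 over the K5-RANKL libraries, with a fitted value of 1.93 (SE 0.52) that became 3.18 without control 3.

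Among tuft cell markers Gfi1b, a transcription factor gene also active in blood cells, had 1 count over the controls and 165 over the K5-RANKL group, a ratio of 86.8 (95% counting interval 15.4 to 3451), and Dclk1 rose by 1.92 (SE 0.09). Ccr3, a chemokine receptor gene of the eosinophil list, had 0 counts in the controls. It stood at 0.993 ± 0.11 CPM in the K5-RANKL libraries (SD, n = 3), at least 11.2-fold higher against 3 counts over the controls.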
